A study of Homo sapiens with 22 samples.

Results

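The report concerns 242 reporter tags that gave high and similar RNA levels in A549 and in H520 cells, out of 211385 tags with at least 100 counts in both libraries of input DNA and 238017 tags seen in any library. The tags sit in the transcripts of luciferase plasmids that were transfected as a pool into A549, an established line from a lung adenocarcinoma, and H520, an established line from a squamous cell carcinoma of the lung. Each line received either DMSO, the vehicle, or benzo(a)pyrene (BaP) at 10 µM, for 18 h in A549 and for 42 h in H520. There were 5 RNA libraries for each of the 4 combinations and 1 library of input plasmid DNA for each line. The RNA libraries are named here by the transfection number in their labels. DMSO and BaP libraries of a line carry the same 5 numbers, and the labels do not say what a number shares. The plasmids were carried into the cells as free constructs, each line is a single tumour line with no normal lung cell beside it, and the exposure time differs between the lines.

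The activity of a tag in an RNA library was log2 of its TPM (tags per M counts, M for mega) plus 0.5 over its TPM in the H520 input plus 0.5, minus the median of that library over the 211385 tags. An activity of 0 is therefore the typical tag. The members were the tags whose mean over the 10 A549 libraries was under 6, whose means in the 2 lines differed by less than 1, and whose mean of the 2 line means was at least 2.5. The members were thus chosen by their activity in the 20 RNA libraries, so their levels and the closeness of the lines are given as a description, without a test. Library totals ran from 177.6 to 371.4 M counts over the 22 libraries, with 333.5 M in the A549 input and 265.8 M in the H520 input.

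A massively parallel reporter assay places many DNA fragments next to a reporter gene and gives each plasmid a short tag that is copied into its RNA. The RNA of a tag over its plasmid DNA measures how strongly the construct was transcribed and how long the RNA lasted. A fragment that binds factors present in many cell types, such as a promoter of a widely used gene, can drive a reporter in unlike cells, whereas a fragment that needs a factor of one lineage cannot. BaP is a hydrocarbon of tobacco smoke that binds the aryl hydrocarbon receptor, a transcription factor that then enters the nucleus and acts on genes of xenobiotic metabolism. Fragments and alleles behind the tags were not used here, and a fragment is usually marked by several tags, so 242 tags are not 242 independent regulatory fragments.

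The 6 members with the highest mean over both lines are shown first, since they mark the top of the class. A deposited tag has 15 bases, of which the first 12 vary and the last 3 (ggc) are shared by all tags. Being designed sequences, they lie at no genomic coordinate. They are written 5′ to 3′ as deposited, in lower case, with every CG dinucleotide in capitals, including one formed with the shared end.
rank 1: CGgcttaCGtaaggc
rank 2: CGccCGataaCGggc
rank 3: acttaCGggtcCGgc
rank 4: aatgCGttgatCGgc
rank 5: gcccaatgactCGgc
rank 6: taCGaacCGgtCGgc

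The members that lean most to 1 line are shown next, the first 3 towards A549 and the last 3 towards H520.
most A549-leaning: CGgcttaCGtaaggc
next A549-leaning: gggtcatCGggtggc
then A549-leaning: ggcCGcatttgaggc
most H520-leaning: agccatcttggCGgc
next H520-leaning: aaCGgtaagagaggc
then H520-leaning: gcttaccagtCGggc

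Members lay between 2.06 and 4.92 in A549, with a median of 2.66, and between 2.28 and 4.14 in H520, with a median of 2.95. Most were near the lower limit: 163 had a mean over both lines of 2.5 to under 3, 47 of 3 to under 3.5, 25 of 3.5 to under 4, and 7 of 4 or more. Levels in single libraries are also only a description, since the rule averaged these same 20 libraries. All 242 were at 1 or more in all 20 RNA libraries, 196 were at 2 or more in all 20, and 102 were at 2.5 or more in all 20. The lowest value of any member in any RNA library was 1.64 and the highest was 5.19. Of the 603 tags that reached 2.5 in H520, 234 were members, and of the 847 that reached it in A549, 161 were members. The other tags that reached 2.5 in a line failed the balance limit, the limit on the mean of both lines, or both. A549 had more of them, by activity over the H520 input. Across the 242 members, Pearson r of the A549 and the H520 mean was 0.70, which describes values that share 1 input library as denominator and were both used to choose the members.

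The mean activity of the 242 members in A549 with DMSO was 2.90, 2.93, 2.98, 2.89 and 2.70 in transfections 1 to 5, or 2.88 ± 0.107 (SD, n = 5). In A549 with BaP it was 3.04, 3.03, 2.73, 2.81 and 2.54, or 2.83 ± 0.210 (SD, n = 5). Both A549 groups had their lowest value in transfection 5, and the groups overlapped. In H520 with DMSO it was 3.02, 3.05, 3.03, 3.12 and 3.0, or 3.04 ± 0.0459 (SD, n = 5). In H520 with BaP it was 3.0, 2.98, 2.97, 3.05 and 2.97, or 2.99 ± 0.0351 (SD, n = 5). H520 libraries were close to one another, and of the 10 A549 libraries only DMSO 3, BaP 1 and BaP 2 lay within or above the H520 range. The group means correspond to levels of 7.36-fold, 7.12-fold, 8.24-fold and 7.96-fold over the typical tag, in the same order. With DMSO, the 242 tags took 1.06% ± 0.111 (SD, n = 5) of all A549 counts and 1.32% ± 0.0447 (SD, n = 5) of all H520 counts. Their share of the input counts was 0.159% in the A549 input and 0.154% in the H520 input.

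The strongest member, CGgcttaCGtaaggc, had activities of 5.03, 5.06, 4.88, 4.90 and 4.77 in A549 with DMSO and 4.03, 4.06, 4.15, 4.12 and 3.98 in H520 with DMSO. With BaP it had 5.19, 5.10, 4.80, 4.91 and 4.55 in A549 and 3.85, 3.95, 4.07, 4.01 and 3.85 in H520. It was higher in every A549 library than in any H520 library, and its line difference of 0.91 was the largest of the class. The second, CGccCGataaCGggc, had 4.27, 4.35, 4.27, 4.17 and 4.07 in A549 with DMSO and 4.12, 4.21, 4.35, 4.28 and 4.11 in H520 with DMSO. With BaP it had 4.50, 4.34, 4.0, 4.05 and 3.87 in A549 and 3.98, 3.98, 4.15, 4.05 and 4.01 in H520. The lines overlapped fully for this tag, whose means were 4.19 and 4.12. Among the 211385 tags it stood 313th in A549 and 32nd in H520, since many A549-leaning tags lie above the members in A549.

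The third, acttaCGggtcCGgc, had means of 4.42 in A549 and 3.85 in H520. In H520 it had 3.86, 3.94, 4.02, 3.92 and 3.90 in the DMSO libraries and 3.74, 3.79, 3.83, 3.75 and 3.74 in the BaP libraries, so the DMSO values all lay above the BaP values. The fourth, aatgCGttgatCGgc, had means of 4.19 and 3.99, and the sixth, taCGaacCGgtCGgc, had 4.03 and 4.05. The fifth, gcccaatgactCGgc, had 3.99 in A549 and the highest H520 mean of the class, 4.14, which stood 29th among all tags in H520. Of these 6 tags, only the third holds one of the motifs given below.

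Members leaned to H520 more often than to A549. The A549 mean minus the H520 mean ranged from -0.99 to 0.91 with a median of -0.17, and it was below 0 for 154 of 242. It was within 0.5 either way for 172 members and within 0.1 for 42. It was below -0.5 for 57 and above 0.5 for 13. All 10 H520 libraries lay above all 10 A549 libraries for 72 members, against 15.4% of all tags, and the reverse held for 18, against 15.6%. The rule used this contrast, so nothing is read from these counts.

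At the A549-leaning end, gggtcatCGggtggc had means of 3.86 in A549 and 3.0 in H520, and ggcCGcatttgaggc had 4.25 and 3.39. At the H520-leaning end, agccatcttggCGgc had 2.16 and 3.14, aaCGgtaagagaggc had 2.06 and 3.03, and gcttaccagtCGggc had 2.12 and 3.05. The A549-leaning end was thus made of tags that are strong in A549, and the H520-leaning end of tags near the lower limit. Just inside the lower limit were gCGattgCGtaCGgc, tagtagctatagggc and cttaggctaCGtggc, with means over both lines of 2.501, 2.502 and 2.502. Just outside it were ggcataaactttggc and atctaggtcCGtggc, both at 2.498, and CGgCGtCGtctaggc at 2.495. Just outside the balance limit were gttCGaatgaaCGgc, with a line difference of 1.01, and gcCGaggtcCGgggc, with -1.04. The limit of 6 in A549 removed no tag: of the 68 tags with an A549 mean of 6 or more, the smallest line difference in size was 2.10.

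Members had higher median input counts than all tags, which follows in part from the rule. Their median input count was 1962.5 in the A549 input (208 to 8251) and 1448 in the H520 input (160 to 5961), against medians of 1284 and 1031 over all 211385 tags. The constant added to each TPM lowers the activity of strong tags with low input, so such tags reach the lower limit less easily. The input counts of members are therefore only a description. At least 500 counts in both inputs were held by 218 members. The lowest count of any member in an RNA library was 1131. The members with the highest summed input counts were CGtcCGtcataaggc (8251 and 5961), agaCGattCGttggc (5678 and 4978) and gcatatCGttatggc (5448 and 4601 counts in the A549 and the H520 input). They were deeply counted and not among the strongest members.

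Each input is 1 library. Their titles end in v1 for A549 and in v2 for H520, and the titles do not say how these versions differ. The H520 input served as denominator in both lines, so the ratio of the inputs bears on each A549 value. Its log2 value for members had a median of 0.08 and ranged from -0.66 to 1.06, and 227 of 242 lay within 0.5 of 0. Over all tags the 5th to 95th percentiles were -0.50 and 0.47. The 68 tags with an A549 mean of 6 or more had a median of 2.54 by the same measure, and all 68 were at 1 or more, against 1 member. That member was CGgcttaCGtaaggc, with 1607 counts in the A549 input and 547 in the H520 input. The next largest ratios belonged to cCGaaagattagggc at 0.84 (506 and 168 counts) and gtcCGaatttgCGgc at 0.75 (446 and 160 counts, the second with an exact Poisson 95% interval of 136 to 187, which covers counting error only). The smallest ratios belonged to tattgaCGcaaCGgc at -0.66 (586 and 819 counts), CGaaccCGctatggc at -0.58 (208 and 315) and ggatCGCGacttggc at -0.50 (1063 and 1258).

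With each line's own input as denominator, the A549 mean of CGgcttaCGtaaggc was 3.85 and its line difference was -0.15 in place of 0.91. The line differences of gggtcatCGggtggc and ggcCGcatttgaggc were then 0.30 and 0.24. The H520-leaning end moved less: agccatcttggCGgc, aaCGgtaagagaggc and gcttaccagtCGggc had -0.88, -0.70 and -0.73. Over the 242 members the line difference then ran from -0.97 to 0.49, so no member differed by 1 or more between the lines. All limits were kept by 216 members, and 108 other tags came within them, so 324 tags then met the rule. With the A549 input as denominator in both lines, 193 members kept all limits and 55 other tags came within them. The other 49 members had a mean under 2.5, of which 1 was under 2.

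The members varied more between A549 transfections than between H520 transfections. The SD over the 10 libraries of a line had a median of 0.185 in A549 (0.072 to 0.706) and of 0.096 in H520 (0.026 to 0.260). It was larger in A549 for 228 of 242 members, against 52.3% of all 211385 tags, whose medians were 0.103 and 0.101. The 913 balanced tags with a mean of 1 to 2.5 had medians of 0.146 in A549 and 0.107 in H520, so the trait is not particular to the members. Most of this spread was common to the members. A549 with BaP in transfection 5 was the lowest of the 10 A549 libraries for 232 of 242, and 239 had a lower value there than in any A549 library with DMSO. The 913 balanced tags also had their lowest A549 mean there, 1.28. So did the 217 tags at least 1 higher in H520 with a mean of 1.5 or more, at 1.22. In the same library the 243 tags that were at least 1 higher in A549 and had a mean of at least 2.5 were at their highest, with a mean activity of 5.60. Over A549 with DMSO those 243 tags had 5.03, 4.19, 4.35, 5.13 and 5.41, and with BaP 4.05, 4.37, 5.25, 5.37 and 5.60. Libraries in which the A549-higher tags were high were thus mostly those in which the balanced members were low, in both treatments. Whether the share of counts taken by the A549-higher tags bears on the members' level was not tested.

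The member with the largest SD in both lines, CGcCGtaagattggc, went the other way. It had 3.57, 2.32, 2.40, 3.39 and 3.91 in A549 with DMSO and 2.41, 2.54, 3.40, 3.76 and 4.19 with BaP. These values were high and low in the same A549 libraries as those of the A549-higher tags. In H520 it had 2.20, 2.65, 2.83, 2.98 and 2.56 with DMSO and 2.25, 2.60, 2.77, 2.73 and 2.32 with BaP. The member with the next largest SD in A549, gttggtatcttgggc, had an SD of 0.29 there.

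In H520 the members fell into unlike patterns over transfections 3 and 4. The activity in transfection 4 minus that in transfection 3 was at least 0.2 for 76 of 242 members with DMSO and for 73 with BaP, and 72 were in both sets. The limit of 0.2 was set after the values had been seen. The BaP libraries of these transfections were not used to form the set of 76. For those 76 tags the median difference was 0.34 with DMSO and 0.32 with BaP, and for the other 166 it was -0.03 with either. Pearson r of the difference with DMSO and the difference with BaP was 0.93 across 242 members and 0.07 across all 211385 tags. The input cancels in these differences. The median of the mean H520 count was 10993.2 for members and 905 over all tags, so the 2 values of r rest on unlike counting errors. Over H520 with DMSO the 76 tags had mean activities of 2.86, 2.95, 2.71, 3.06 and 2.83, and with BaP 2.89, 2.93, 2.70, 3.03 and 2.84. The other 166 had 3.09, 3.10, 3.17, 3.14 and 3.08 under DMSO and 3.05, 3.0, 3.09, 3.06 and 3.03 under BaP. For the 76 tags, transfection 3 was the lowest and transfection 4 the highest of each treatment, while for the 166 tags transfection 3 was the highest.

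The 76 tags were mostly the H520-leaning and weaker members. Their median A549 mean was 2.41, against 2.91 for the other 166, while the H520 medians were 2.91 and 2.99. The line difference was below 0 for 67 of the 76 (88.2%) and for 87 of the 166 (52.4%). A mean over both lines of 3 or more was reached by 2 of the 76 and by 77 of the 166. By line difference, 40 of 57 members from -1 to -0.5 had the 0.2 difference with DMSO, as did 27 of 97 from -0.5 to 0, 8 of 75 from 0 to 0.5 and 1 of 13 from 0.5 to 1. Of the members as a whole, 31.4% had the 0.2 difference with DMSO and 30.2% with BaP. The 913 balanced tags with a mean of 1 to 2.5 had it more often, at 42.2% and 35.5%. The 243 A549-higher tags had it in 17.3% and 2.47%. Among tags at least 1 higher in H520 with a mean of 1.5 or more, 63.6% of 217 had it with DMSO and 48.8% with BaP. Among the 68 tags with an A549 mean of 6 or more, 7.35% had it with DMSO and 0% with BaP, and over all tags 6.55% and 6.99% did. The second largest SD in H520 belonged to tatatCGcCGaaggc, with 2.53, 2.90, 2.40, 2.87 and 2.66 with DMSO and 2.83, 2.93, 2.49, 2.92 and 2.72 with BaP. It was lowest in transfection 3 with either treatment. The labels give no batch, day or culture for these transfections, and what set transfections 3 and 4 apart was not tested.

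The DMSO and BaP libraries of each line were set against each other to ask whether exposure moved these reporters. The rule averaged both treatments, so it did not use this contrast. All 242 members entered the tests. In A549, edgeR's quasi-likelihood test with Benjamini-Hochberg adjustment over 223556 tags called 0 of 242 members at an adjusted p of 0.05, and 0% of all tags. The smallest adjusted p of a member was 0.9999. At an unadjusted p under 0.05 there was 1 member (0.413%), with a negative log2 fold change, against 2.59% of all tags (1.42% negative and 1.17% positive), and DESeq2 called 0 members. The labels do not say whether the transfections came from separate cultures, so p-values measure the spread between transfections only. The log2 fold changes of members had a median of -0.04, with 5th and 95th percentiles of -0.11 and 0.02, and the median SE was 0.0972. They were negative for 198 of 242 (81.8%), against 50.6% of all tags. Without A549 with BaP in transfection 5 the count was 89 of 242 with a median of 0.02, and without A549 with DMSO in transfection 3 it was 146, so the share moves with single libraries. No member had all 5 BaP libraries above, or all 5 below, all 5 DMSO libraries, against 0.252% and 0.224% of all tags.

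The 1 member with an unadjusted p under 0.05 in A549 was ctatCGtcaggaggc, whose edgeR log2 fold change was -0.18, with an SE of 0.0602 and an adjusted p of 0.9999. The next was cCGaaagattagggc, with -0.15 (SE 0.0750). The mean level of the members with BaP minus that with DMSO was -0.05 in A549, and BaP was lower in 3 of 5 transfections of the same number. Without A549 with BaP in transfection 5 it was 0.02, so its direction rests on that library.

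In H520 most members had small negative BaP differences, and whether any passed an adjusted threshold differed between fits. The same edgeR test over 223998 tags, with no block for the transfection number, called 0 of 242 members and 0% of all tags, and the smallest adjusted p of a member was 0.998. With the transfection number as a replicate block, edgeR called 38 of 242 members (15.7%), all lower with BaP, against 0.0670% of all tags, or 0.0286% lower. DESeq2 called 4 of 239 members with an adjusted p (1.67%), all lower, against 10 of 20994 tags (0.0476%), or 5 lower (0.0238%). The 4 were acttaCGggtcCGgc (adjusted p 0.0383, log2 fold change -0.16), agtaatccCGgaggc (0.0383, -0.19), ctactCGagataggc (0.0383, -0.15) and ggataactatcCGgc (0.0291, -0.16). They are named because they are few, after their values were seen. Same-numbered DMSO and BaP libraries of H520 deviated together over the members, with r of 0.38 to 0.92 in the 5 pairs, but over all tags r was 0.04 to 0.16. At an unadjusted p under 0.05 there were 71 members (29.3%), all 71 lower with BaP, against 4.71% of all tags, or 2.35% lower and 2.36% higher with BaP. The log2 fold changes had a median of -0.05, with 5th and 95th percentiles of -0.15 and 0.07, and 202 of 242 (83.5%) were negative, against 50.0% of all tags. None was larger in size than 0.20. The median SE of the members was 0.0461, against 0.0757 over all tags with 100 counts in both inputs. The p-values and the shares called of members and of other tags therefore rest on unlike errors.

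The members with the smallest p in H520 were agtaatccCGgaggc and ccttgagatCGgggc. The first had activities of 2.49, 2.55, 2.60, 2.46 and 2.57 with DMSO and 2.37, 2.23, 2.43, 2.36 and 2.34 with BaP, and edgeR gave -0.19 (SE 0.0432, unadjusted p 3.49e-05, adjusted p 0.998). The second had 2.71, 2.61, 2.70, 2.53 and 2.78 with DMSO and 2.56, 2.40, 2.49, 2.36 and 2.56 with BaP, with -0.20 (SE 0.0457, adjusted p of 0.998). All 5 BaP values lay below all 5 DMSO values for the first and overlapped them for the second. The 6 strongest members also had negative log2 fold changes in H520, of -0.12 to -0.18. All 5 BaP libraries lay below all 5 DMSO libraries for 12 members (4.96%), against 0.391% of all tags, with differences of -0.19 to -0.10. The reverse held for 0 members, against 0.416% of all tags. The median of the mean H520 count was 10993.2 for members and 905 over all tags, so these shares also rest on unlike counting errors.

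The mean level of the members in H520 with BaP minus that with DMSO was -0.05, and BaP was lower in 5 of 5 transfections of the same number. It was -0.07, lower in 5 of 5, for the 166 members without the difference between transfections 3 and 4. It was -0.003, lower in 3 of 5, for the 76 members with that difference. Other classes were either lower or higher with BaP in the same libraries. The 243 A549-higher tags had -0.05, lower in 5 of 5, which is close to the value of the members. Of these 243 tags, 207 (85.2%) had negative log2 fold changes. The 68 tags with an A549 mean of 6 or more had -0.08, also lower in 5 of 5. The difference was 0.02 for the 913 balanced tags with a mean of 1 to 2.5 and 0.08 for the 217 H520-higher tags. Of the 217 H520-higher tags, 54 (24.9%) had an unadjusted p under 0.05, all 54 with positive log2 fold changes. The H520-higher tags thus had the opposite sign to the members in the same libraries, and the difference between these classes was not tested.

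The response to BaP was compared between the lines with edgeR's interaction test over 225212 tags, H520 minus A549. It called 0 of 242 members and 0% of all tags, and the smallest adjusted p of a member was 1.0. At an unadjusted p under 0.05 there were 0 members, against 3.46% of all tags (1.81% positive and 1.65% negative), and DESeq2 called 0. The median interaction was -0.01 on the log2 scale, 130 of 242 (53.7%) were negative, and the median SE was 0.116. The count of negative values was 70 without A549 BaP 1, 75 without A549 BaP 2, 84 without A549 DMSO 5 and 193 without A549 BaP 5. The smallest p belonged to CGaatccCGtttggc, at -0.15 (SE 0.0739), and ttcagCGaatcCGgc, at 0.16 (SE 0.0793). A BaP difference in H520 of the size given above was therefore not shown to differ from that in A549.

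The tag sequences, which the rule did not use, differed from the pool by a few percentage points. The 12 varying bases of members were 50.0% G or C, against 47.7% over all 211385 tags and 48.1% over the 913 balanced tags with a mean of 1 to 2.5. At least 1 CG within those bases was held by 216 members (89.3%), against 83.4% of all tags and 86.4% of the 913. The base at position 5, counted from 1 at the 5′ end, was t in 17.4% of members and in 27.1% of all tags, and g in 30.6% and 22.3%. The first base was c in 33.9% and 27.1%. These shares were not tested, because tags of the same fragment need not be independent.

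The 15 bases of each tag were searched on both strands for 10 motifs, and most were in few members. The members that hold one are shown with the motif in capitals. The polyadenylation signal ATTAAA was in 1 member (0.498% of all tags), GCGTG, the core bound by the aryl hydrocarbon receptor, in 1 (0.568%), CCGGAA, the ETS core, in 1 (1.06%), TATAAA, the TATA box, in 2 (0.314%) and GTAAGT, a splice donor sequence, in 1 (0.985%).
polyadenylation signal: ATTAAAcgtaatggc
receptor core: caaacgttGCGTGgc
ETS core: cgCCGGAAtcttggc
first TATA sequence, reverse strand: aatgcTTTATAaggc
second TATA sequence, reverse strand: gcgacTTTATAgggc
splice donor, reverse strand: ACTTACgggtccggc

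The tag with GCGTG had means of 3.24 in A549 and 3.49 in H520, and its BaP minus DMSO activity was -0.02 in A549 and -0.13 in H520. The tag with ATTAAA had 2.84 and 2.75. Members held neither TGACTCA (AP-1; 0.0449% of all tags) nor GGGCGG (Sp1; 0.304%). AATAAA, another polyadenylation signal, CACGTG, an E-box, and TTTTTT, a run of T, were in no member and in 0% of all tags. A match in a tag is only a run of letters, and the cloned fragment is a different stretch of the plasmid.

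The members were not a family of similar tags. The distance to the nearest other member, as the number of the 12 varying bases that differ, was 1 for 4 members, 2 for 2, 3 for 55, 4 for 110 and 5 for 71. The 3 closest pairs are shown with the differing bases in capitals.
pair 1, tag 1: aAttcgagaggcggc
pair 1, tag 2: aTttcgagaggcggc
pair 2, tag 1: ccgaaagattaCggc
pair 2, tag 2: ccgaaagattaGggc
pair 3, tag 1: gAatcgcgaGttggc
pair 3, tag 2: gGatcgcgaCttggc

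Pair 1 differs by A2T, with positions counted from 1 at the 5′ end, and its tags had A549 means of 2.55 and 3.54 and H520 means of 2.85 and 3.09. Pair 2 differs by C12G, with 2.40 and 3.52 in A549 and 2.99 and 2.90 in H520. Pair 3 differs by A2G and G10C, with 2.26 and 3.51 in A549 and 2.78 and 3.95 in H520. Over the H520 input, near-identical tags thus differed by about 1 log2 unit or more in A549, and in pairs 1 and 2 by less in H520. In pair 2 the tags had 1284 and 506 counts in the A549 input, but 1091 and 168 in the H520 input. In pair 1 they had 1341 and 1395 counts in the A549 input, and 1110 and 887 in the H520 input. The A549 gaps of pairs 1 and 2 therefore depend on which input is the denominator. Tags 1 base away from a member that were not members numbered 895. Their mean over both lines had a median of 0.02, and 12 of them (1.34%) were at 1 or more, against 1.25% of all tags.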

How the data were processed

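Per the labels' protocols, cDNA was made from polyadenylated RNA and the tag region was amplified from it, and from plasmid DNA for the inputs. The submitters' processing notes name bcl2fastq. The rule that matched reads to tags was not given in the sources used here. The deposited files hold, per the file headers, a count per tag, the total count of the library and TPM, which equals the count per M of that total. No molecular identifiers are described, so intervals cover counting error only.

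Counts of 22 libraries were joined on the tag, with 0 where a library did not list it. Activity and membership were computed from the deposited TPM with a pseudocount of 0.5. Input counts of at least 100 were required. BaP was tested in all tags with edgeR 4.0.16 in R 4.3.3 (TMM, filterByExpr, robust quasi-likelihood test, Benjamini-Hochberg adjustment, threshold 0.05) on 10 libraries a line, and the line by treatment interaction on 20. DESeq2 1.42.0 and the other alternatives are in the closing section. On simulated counts, 200 tags per fold size, the test recovered 85.5% of 1.5-fold and 96.5% of 2-fold changes in A549. It recovered 93.0% and 99.0% in H520, and 68.5% and 93.5% for the interaction. Unchanged tags made up 5.70%, 4.71% and 3.86% of the calls. The simulated tags varied independently, without shifts shared within a library. No member had a log2 fold change larger in size than 0.30 in any test, so these rates do not cover changes as small as the members'.

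Named tags were the 6 highest means, the 3 at each end of the line difference, of the input ratio and of the limits, the 2 smallest p of each test, the 3 highest inputs, the 3 closest pairs and the 2 largest SDs of each line. The members, lists and rules were chosen with earlier results of these data known. Tags were not tied to fragments, alleles or orientations here, so these were not analysed here.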

Additional observations from a re-analysis of the deposited data

Results flagged for a closer look

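In 144 groups of 5 libraries (the levels of the class and of 34 named members in each treatment and line), 6 had 1 library far from the other 4. Chance marks about 1 in 20 such groups. Of the 6, 4 were low values of A549 transfection 5, the library number in which most members were low. The member aatgCGttgatCGgc was at 4.04 in A549 with DMSO in transfection 5, against 4.24 to 4.27 in the others. In the same library agaCGattCGttggc was at 2.36, against 2.58 to 2.66, and cCGaaagattaCGgc was at 2.19, against 2.47 to 2.58. In A549 with BaP, CGaatccCGtttggc was at 2.73 in transfection 5, against 2.91 to 2.96.

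The remaining 2 concern gttggtatcttgggc in H520 transfection 3. It was at 2.66 with DMSO, against 2.96 to 2.99 in the other 4, and at 2.61 with BaP, against 2.88 to 2.96. The same transfection number was low in both treatments. This tag is itself among the 76 members described above, so it is not a separate instance of their pattern.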

How the results depend on the processing

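Leaving out each library in turn gave 231 to 254 members (242 with all), mean activities of 2.84 to 2.89 in A549 (2.86) and 3.01 to 3.02 in H520 (3.02), and a mean line difference of -0.18 to -0.13 (-0.16). It left 0 members called in the A549, H520 and interaction tests, and 54 to 80 members at an unadjusted p under 0.05 in H520 (54 without H520 DMSO 4, of which 48 were lower with BaP). The mean BaP difference was then -0.10 to 0.02 in A549, where leaving out A549 BaP 5 turned its sign, and -0.07 to -0.03 in H520. Without A549 BaP 5, 15 members had an unadjusted p under 0.05 in the interaction. A pseudocount of 2 gave 106 members, of which 105 were among the 242, and mean activities of the 242 of 2.48 in A549 and 2.67 in H520. A pseudocount of 0.1 moved the H520 mean to 3.14, and the A549 input moved it to 2.94. DESeq2 called 4 members in H520 and 10 tags of the 20994 with an adjusted p.

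The replicate block (transfection number) called 38 members in H520, all lower with BaP, beside 86 tags higher and 64 lower in all. The labels do not say what a transfection number shares, and the correlations differ with the tags used. Over the members the correlation of deviations was 0.38 to 0.92 in H520, over 0.1 in 5 of 5 pairs, and -0.57 to 0.90 in A549, over 0.1 in 3 of 5. Over all tags it was 0.04 to 0.16 in H520, over 0.1 in 1 of 5 pairs, and -0.02 to 0.49 in A549, over 0.1 in 3 of 5. In H520 the values of r rest on unlike counting errors, as the median of the mean count was 10993.2 for members and 905 over all tags. A low r over all tags therefore cannot decide whether the numbers pair the samples. The main tests left the number out, and in H520 the count of members called depends on that choice. In H520, 9 of 10 libraries correlated best with their own number, and in A549 5 of 10, which is a hint from the data and not the design. With the block, agtaatccCGgaggc had an edgeR adjusted p of 0.0069 and ccttgagatCGgggc of 0.000174. Over their other alternatives the adjusted p ran from 0.0383 and 0.0831 (both DESeq2) up to 1.0 for each. The block called 0 members in A549 and in the interaction, as did the other scalings and filters in all 3 tests. The remaining 51 values, under alternatives other than leaving out single libraries, were counted as unchanged. They include those from DMSO libraries only (250 members) and from BaP libraries only (223 members). Unchanged does not mean equal, since each line's own input as denominator gave 324 members against 242.

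Limits: 1 input library a line, no link from tag to fragment, and no stated cultures behind the transfections.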
